A study of Mus musculus with 8 samples.

Results

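The tumor suppressor gene *Trp53*, which encodes p53, and 9 genes that p53 is known to regulate were examined in *iMLL-AF9* mouse leukemic cells treated with IOX5 or with DMSO. These 10 genes were taken by symbol from the 54838 genes of the count tables, and all 10 were found and passed the filter on low counts. They are *Trp53*, *Cdkn1a*, *Mdm2*, *Ccng1*, *Zmat3*, *Phlda3*, *Trp53inp1*, *Aen*, *Btg2* and *Fas*. IOX5 is a small molecule that inhibits the prolyl hydroxylases (PHDs) which mark HIF-α for degradation, and DMSO is its solvent. RNA was sequenced from 4 DMSO samples and 4 IOX5 samples, numbered 1 to 4 in each group. Cells of both groups carried an *MLL-AF9* oncogene that is switched on by doxycycline, were labeled wild type in genotype and were described as bone marrow leukemic stem cells. The dose, the length of treatment and what the sample numbers stand for are not given in the sources used here.

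The transcription factor p53 is held at a low level by MDM2, the ubiquitin ligase that targets it for destruction. DNA damage and other stresses free p53 from MDM2, and p53 then binds the promoters or introns of its target genes. Its targets stop the cell cycle, repair DNA, trigger apoptosis and, through *Mdm2* itself, feed back on p53. In acute myeloid leukemia with *MLL* rearrangements the p53 gene is mostly not mutated. Much of p53 control acts on the protein, which RNA counts do not measure.

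The p53 binding site is made of paired half-sites of 10 bases, and a half-site reads alike on both strands. Promoter windows from 250 bases before to 50 bases after an annotated start were available from RefSeq (GRCm38.p6) for 8 of the 10 genes, as 10 windows. Windows for *Zmat3* and *Trp53inp1* were not used here. A full match to the half-site consensus was found in a window of 5 genes (*Trp53*, *Cdkn1a*, *Mdm2*, *Ccng1* and *Aen*), and 8.36% of all 32851 RefSeq windows held one. Pairs of full matches, separated by at most 13 bases, were found in 1 window of *Cdkn1a* and in 0.0731% of all windows. Half-sites with a mismatch were not searched for, so pairs that hold one were not counted and are not marked below. The stretches of the 3 genes below are shown because they lie next to start sites of the inhibitor of the cell cycle, of the feedback gene and of the most abundant of the 10 transcripts, and none overlaps an exon. Letters in capitals mark the full matches to the half-site.
Cdkn1a: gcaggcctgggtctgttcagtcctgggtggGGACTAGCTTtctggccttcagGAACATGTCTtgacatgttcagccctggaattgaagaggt
Ccng1: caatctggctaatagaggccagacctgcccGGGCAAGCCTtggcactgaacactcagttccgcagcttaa
Mdm2: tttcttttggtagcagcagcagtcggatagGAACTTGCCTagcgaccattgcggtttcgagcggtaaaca
The *Cdkn1a* stretch is chr17:29090876-29090967 on the plus strand. It lies at positions -103 to -12 from the more upstream of the *Cdkn1a* start sites with a window. The other *Cdkn1a* window, chr17:29093519-29093818, held 0 full matches to the half-site. The *Ccng1* stretch is chr11:40755432-40755501 on the minus strand, at -215 to -146, and the *Mdm2* stretch is chr10:117710905-117710974 on the minus strand, at -216 to -147. The core of the hypoxia response element, which HIF binds (ACGTG or GCGTG on either strand; the palindrome CACGTG matches on both), was found in windows of 7 of the 8 genes, against 43.8% of all windows. It did not overlap a full match to the p53 half-site in any of them. The counts above are of genes, some with more than 1 window, while the shares are of single windows, so the units differ. These matches describe letters of the reference genome and are not evidence of binding.

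Between 12343770 and 14116054 reads per DMSO sample and between 11351507 and 12708888 reads per IOX5 sample were counted on genes. Expression is given as CPM, the read count scaled to a common library size with TMM factors. Fold changes are log2 of IOX5 over DMSO from edgeR's quasi-likelihood test, and a gene was called changed at an adjusted p under 0.05 (Benjamini-Hochberg over all 12405 genes tested). DMSO and IOX5 samples of one number departed from the means of their groups in like ways, so a fit with the number as a block was also run, and its value is given where it changed a call. All 10 markers of hematopoietic and MLL-AF9 leukemic cells reached 1 CPM, with a sum of 2861 to 5304 CPM in DMSO samples and 3246 to 5996 CPM in IOX5 samples. Of 8 macrophage markers, 5 reached 1 CPM, and their sum ran from 148.2 to 206.4 CPM with DMSO and from 226.0 to 501.2 CPM with IOX5, without overlap. Of 8 mast cell and basophil markers, 7 reached 1 CPM, with sums of 160.3 to 601.0 CPM with DMSO and 258.3 to 1000 CPM with IOX5. These sums overlapped, but all 7 mast cell and basophil markers tested were higher by edgeR with the block and 6 were higher within all 4 numbers, with a median log2 fold change of 0.90. With the block, 2 of 6 macrophage markers tested and 4 of the 10 hematopoietic and leukemic markers were higher too. Of those 10 markers, 6 were higher and 1 was lower within all 4 numbers. Of all genes tested, 11.2% were called higher with the block and 21.3% were higher within all 4 numbers. Erythroid markers summed to 3.89 to 17.2 CPM and 7.37 to 28.2 CPM, and of the 4 tested all were higher within all 4 numbers and 1 was called with the block. Of 6 stromal and endothelial markers, 2 reached 1 CPM, with sums of 84.5 to 167.9 CPM with DMSO and 132.5 to 221.4 CPM with IOX5. Nearly all of these sums was 1 gene, *Pecam1*, at 82.6 to 162.9 CPM with DMSO and 130.6 to 217.7 CPM with IOX5. *Col1a2* had 0 reads. The part of these cell markers in the results below was not tested. In bulk RNA, more cells of one type cannot be told apart from more RNA per cell.

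*Trp53inp1* rose with IOX5, and it was the only one of the 10 genes called without the block, where 0.774% of all genes tested were called higher and 1.25% lower. When the replicate number was a block, 6 of the 10 genes rose (*Trp53inp1*, *Cdkn1a*, *Ccng1*, *Zmat3*, *Phlda3* and *Btg2*), against 11.2% of all genes called higher and 9.43% called lower by that fit. None of the 10 was called lower in either fit, and 0 had a lower value at an unadjusted p under 0.05 by edgeR, with or without the block. At an unadjusted p under 0.05 without the block, 5 of the 10 were higher, beside 8.98% of all genes higher and 11.2% lower. DESeq2 called 4 of the 10 higher (*Cdkn1a*, *Ccng1*, *Phlda3* and *Trp53inp1*) and 0 lower, beside 3.94% of all genes called higher and 4.85% lower. The median log2 fold change of the 10 genes was 0.51, and that of all genes tested was 0.02. *Trp53*, *Mdm2*, *Aen* and *Fas* were not called by any of these tests at an adjusted p under 0.05. With the block, 8 of the 10 genes, *Mdm2* and *Fas* among them, were higher at an unadjusted p under 0.05. By that measure 4390 of the 12405 genes tested differed in either direction. In the same samples, the mast cell and basophil markers above and 4 of the 10 hematopoietic and leukemic markers were higher with the block. So were 2 of the 6 macrophage markers tested, and the macrophage marker sums did not overlap between the groups. The part of these markers in the rise of the 6 genes was not tested.

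**Figure D1:**
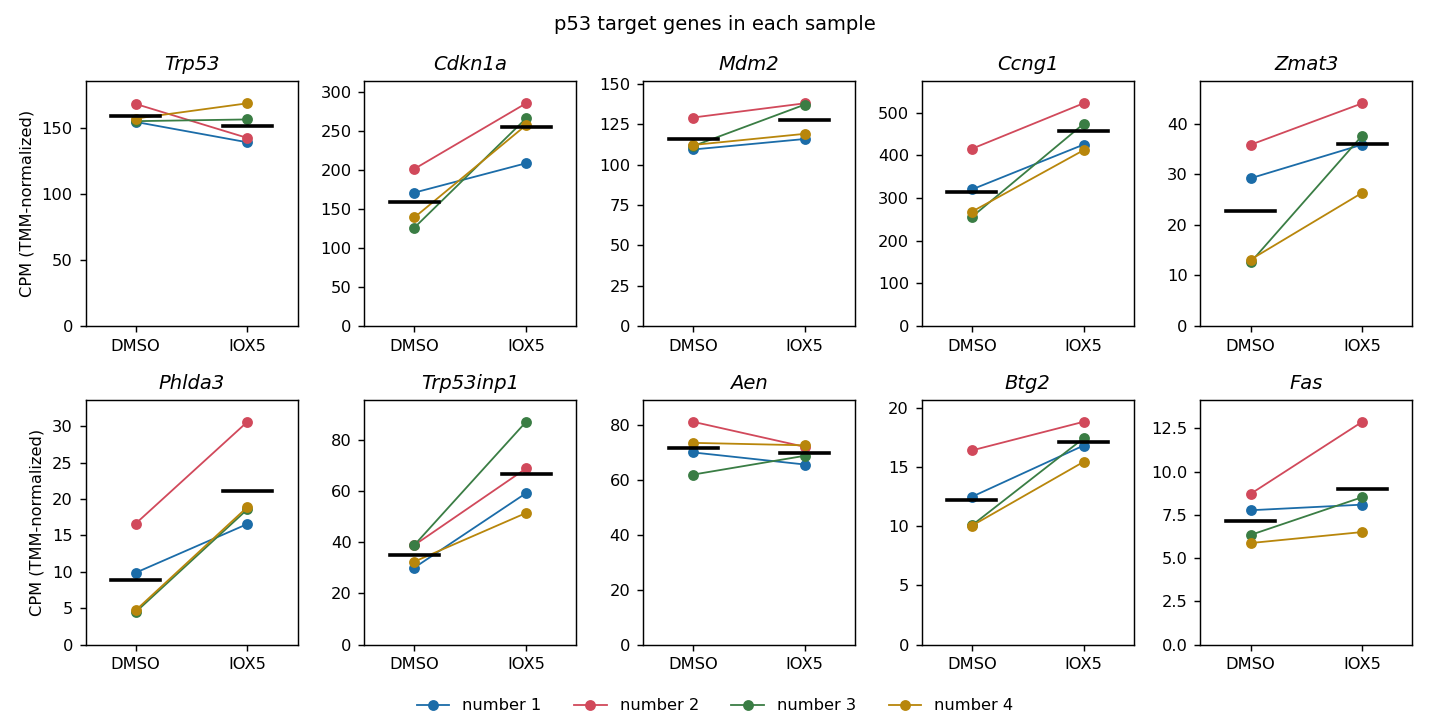
TMM-normalized CPM (y axis, from 0, separate scale per gene) of the 10 genes in the 4 DMSO and 4 IOX5 samples. Points are samples, lines join samples with the same number and black bars are group means; all 4 lines rise for each gene but *Trp53* and *Aen*, and for *Cdkn1a* and *Trp53inp1* every IOX5 sample lies above every DMSO sample.

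The transcript of p53 itself was abundant and was not called changed. *Trp53* (ENSMUSG00000059552; GRCm38 chromosome 11, 69580359 to 69591873, plus strand) was measured at 154.3, 167.9, 154.9 and 156.9 CPM in DMSO samples 1 to 4 and at 138.9, 142.2, 156.2 and 168.4 CPM in IOX5 samples 1 to 4. The groups overlapped, and IOX5 was the lower sample for numbers 1 and 2 and the higher for numbers 3 and 4. Its log2 fold change was -0.07 (SE 0.07, adjusted p = 0.659 by edgeR; exact two-sided permutation p = 0.371). The related genes *Trp63* and *Trp73* had 0 reads in all 8 libraries, and 3 reads, the limit that a count of 0 allows, would be 0.266 CPM in the smallest library.

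*Mdm2*, the ubiquitin ligase that degrades p53 and whose own transcription p53 drives, was not called in either fit. *Mdm2* (ENSMUSG00000020184; chromosome 10, 117688875 to 117710758, minus strand) stood at 109.3, 129.1, 111.4 and 112.1 CPM with DMSO and at 115.8, 137.9, 137.1 and 119.0 CPM with IOX5. Sample 2 was the highest of each group, and the groups overlapped through the DMSO value of 129.1 CPM. IOX5 was higher within all 4 numbers, with log2 ratios of 0.08, 0.10, 0.30 and 0.09. The log2 fold change was 0.14 (SE 0.08, adjusted p = 0.386 by edgeR, and 0.140 with the block; exact two-sided permutation p = 0.171).

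*Ccng1*, which encodes cyclin G1, a partner of the phosphatase PP2A that acts on MDM2, was higher with IOX5 within each number, by log2 ratios of 0.41, 0.33, 0.89 and 0.62. *Ccng1* (ENSMUSG00000020326; chromosome 11, 40748552 to 40755311, minus strand) stood at 320.0, 415.4, 255.6 and 267.9 CPM with DMSO and at 425.1, 522.0, 473.7 and 412.0 CPM with IOX5. Only DMSO sample 2 reached into the IOX5 range, where it lay above IOX5 sample 4. The mean was 314.7 ± 72.7 CPM (SD, n = 4) with DMSO and 458.2 ± 50.1 CPM (SD, n = 4) with IOX5. Without the block the log2 fold change was 0.54 (SE 0.15, adjusted p = 0.0996 by edgeR; exact two-sided permutation p = 0.0571). With the block it was 0.56 (SE 0.08, adjusted p = 0.000802 by edgeR), which called it higher.

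*Cdkn1a*, which encodes the cyclin-dependent kinase inhibitor p21 and is the best known arrest gene of p53, was 1.60-fold higher with IOX5. *Cdkn1a* (ENSMUSG00000023067; chromosome 17, 29090976 to 29100727, plus strand) stood at 171.2, 201.7, 126.3 and 139.4 CPM with DMSO and at 208.9, 285.8, 266.5 and 257.8 CPM with IOX5. The groups did not overlap, although IOX5 sample 1 lay only just above DMSO sample 2. The mean was 159.7 ± 33.8 CPM (SD, n = 4) with DMSO and 254.8 ± 32.7 CPM (SD, n = 4) with IOX5. The exact two-sided permutation test gave p = 0.0286, the least these group sizes can give. The edgeR test without the block left it just outside the threshold (log2 fold change 0.67, SE 0.15, adjusted p = 0.0591). With the block it passed (0.69, SE 0.10, adjusted p = 0.000807 by edgeR), as it did in DESeq2 without a block (adjusted p = 0.000881). A gene on the opposite strand shares 273 exonic bases with *Cdkn1a*, and it had 9 reads against 20589 for *Cdkn1a* over the 8 libraries.

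*Btg2*, an antiproliferative gene whose protein recruits the CCR4-NOT deadenylase, was lower in level than *Cdkn1a*. *Btg2* (ENSMUSG00000020423; chromosome 1, 134075170 to 134079120, minus strand) stood at 12.5, 16.4, 10.1 and 10.04 CPM with DMSO and at 16.8, 18.8, 17.4 and 15.4 CPM with IOX5. DMSO sample 2 lay above IOX5 sample 4, and otherwise the groups were apart. The log2 fold change was 0.48 without the block (SE 0.17, adjusted p = 0.161 by edgeR) and 0.50 with it (SE 0.11, adjusted p = 0.00858). The exact two-sided permutation p was 0.0571. The blocked call of *Btg2* was lost when number 3 was left out, which left 5 of the 10 genes called, and the other 5 were called whichever number was left out.

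Among the genes tied to cell death and survival, *Trp53inp1* gave the smallest adjusted p. It encodes a stress protein that promotes apoptosis and autophagy. *Trp53inp1* (ENSMUSG00000028211; chromosome 4, 11156431 to 11174379, plus strand) stood at 30.1, 38.9, 38.9 and 32.4 CPM with DMSO and at 59.2, 68.8, 87.1 and 51.4 CPM with IOX5. Each IOX5 sample was well above each DMSO sample, and IOX5 sample 3 was the highest. The mean rose from 35.1 ± 4.52 CPM (SD, n = 4) to 66.6 ± 15.4 CPM (SD, n = 4), a 1.90-fold change. The log2 fold change was 0.93 without the block (SE 0.16, adjusted p = 0.0333 by edgeR) and 0.91 with it (SE 0.08, adjusted p = 3.8e-05). The exact two-sided permutation p was 0.0286. The unblocked call was lost on leaving out any single sample but IOX5 sample 4, with adjusted p-values from 0.0579 to 0.131 by edgeR.

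*Phlda3*, whose protein restrains the survival kinase AKT by competing for membrane lipids, had the largest fold change of the 10 genes, from few reads. *Phlda3* (ENSMUSG00000041801; chromosome 1, 135766119 to 135769136, plus strand) stood at 9.88, 16.6, 4.47 and 4.71 CPM with DMSO and at 16.6, 30.6, 18.6 and 18.9 CPM with IOX5. The DMSO samples fell into a higher pair, 1 and 2, and a lower pair, 3 and 4, and only DMSO sample 2 reached the lowest IOX5 value. The library with the fewest *Phlda3* reads held 55. The fold change was 2.37 (log2 1.24, SE 0.42, adjusted p = 0.147 by edgeR; exact two-sided permutation p = 0.0571). It was called with the block (log2 1.33, SE 0.19, adjusted p = 0.000542 by edgeR) and by DESeq2 without one (adjusted p = 0.0299).

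*Zmat3* showed the same division of the DMSO samples. It encodes a zinc finger protein that binds RNA. *Zmat3* (ENSMUSG00000027663; chromosome 3, 32334792 to 32366014, minus strand) stood at 29.2, 35.9, 12.6 and 13.1 CPM with DMSO and at 35.9, 44.1, 37.7 and 26.4 CPM with IOX5. The groups overlapped, since DMSO samples 1 and 2 were both above IOX5 sample 4. Within a number, IOX5 was higher each time, by log2 ratios of 0.29, 0.30, 1.57 and 0.997. The log2 fold change was 0.66 without the block (SE 0.34, adjusted p = 0.319 by edgeR) and 0.75 with it (SE 0.17, adjusted p = 0.00715). The exact two-sided permutation p, which ignores the numbers, was 0.143.

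*Aen* and *Fas* were not called in either fit. *Aen*, which encodes an apoptosis-enhancing nuclease (ENSMUSG00000030609; chromosome 7, 78895854 to 78911209, plus strand), stood at 70.2, 81.4, 62.1 and 73.7 CPM with DMSO and at 65.8, 72.2, 68.9 and 72.8 CPM with IOX5. All 4 IOX5 values lay inside the DMSO range. Its log2 fold change was -0.04 (SE 0.09, adjusted p = 0.839 by edgeR), and its sign turned to 0.03 without DMSO sample 2. *Fas*, the death receptor for FAS ligand (ENSMUSG00000024778; chromosome 19, 34290666 to 34327772, plus strand), stood at 7.77, 8.71, 6.34 and 5.87 CPM with DMSO and at 8.09, 12.9, 8.52 and 6.50 CPM with IOX5. The groups overlapped in most samples, and IOX5 sample 2 was the highest. *Fas* had a log2 fold change of 0.33 (SE 0.23, adjusted p = 0.467 by edgeR, and 0.114 with the block), from 75 to 145 reads per library. Without IOX5 sample 2 the value was 0.10.

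**Figure D2:**
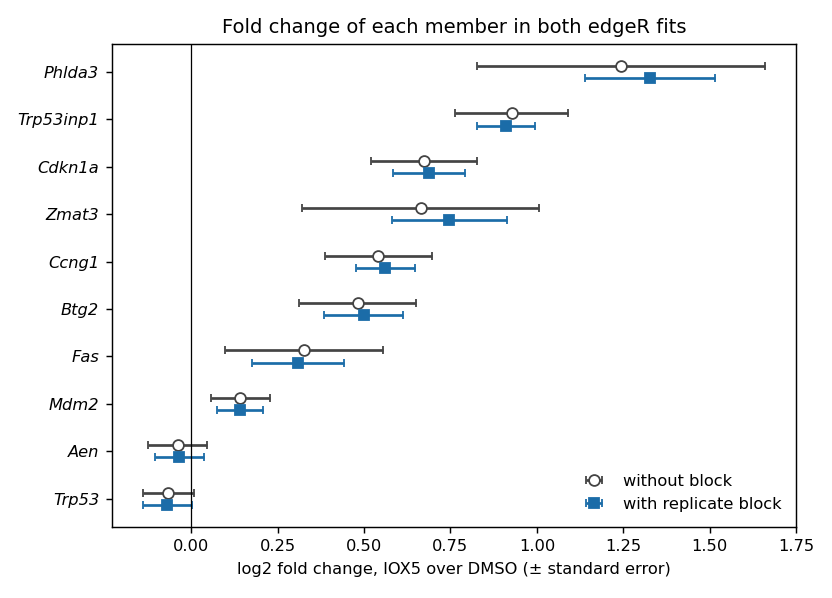
Log2 fold change of IOX5 over DMSO (x axis) for the 10 genes (y axis), without the block (open circles) and with the replicate block (filled squares), with standard errors as bars. The estimates lie close together in both fits, while the bars shrink with the block, for *Phlda3* from 0.42 to 0.19 and for *Zmat3* from 0.34 to 0.17.

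The highest values of the 10 genes lay mostly in sample 2 of each group, while their lowest values were divided between samples. In the DMSO group, sample 2 had the highest value for 9 of the 10 genes, while it was the highest sample for 30.8% of all genes tested. The exception was *Trp53inp1*, for which DMSO sample 3 was level with it. In the IOX5 group, sample 2 was the highest for 7 of the 10 genes and for 31.0% of all genes. DMSO sample 3 was the lowest of its group for 5 of the 10 genes, sample 1 for 3 and sample 4 for 2. Among the IOX5 samples, samples 1 and 4 were each the lowest for 5 genes, and sample 4 was also the highest for 2, *Trp53* and *Aen*. The span from the lowest to the highest DMSO sample was widest for *Phlda3* (1.86 on the log2 scale) and *Zmat3* (1.498), and narrowest for *Trp53* (0.12).

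IOX5 was higher than DMSO within all 4 numbers for 8 of the 10 genes, all but *Trp53* and *Aen*. Of all genes tested, 21.3% were higher within all 4 numbers and 19.8% were lower. The groups did not overlap for 2 of the 10 genes, both higher with IOX5, beside 5.98% of all genes that were higher and 8.3% that were lower without overlap. The rise was uneven between numbers. For the 6 genes called with the block, the median log2 ratio was 0.42 in number 1, 0.42 in number 2, 1.12 in number 3 and 0.77 in number 4. *Cdkn1a*, *Ccng1*, *Zmat3*, *Phlda3* and *Btg2* each had their larger ratios in numbers 3 and 4, where their DMSO values, which these ratios contain, were lowest. *Trp53inp1* differed, with 0.97, 0.82, 1.16 and 0.66. The medians of all genes tested lay between -0.0008 and 0.04 in the 4 numbers. What sets the numbers apart was not tested.

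**Figure D3:**
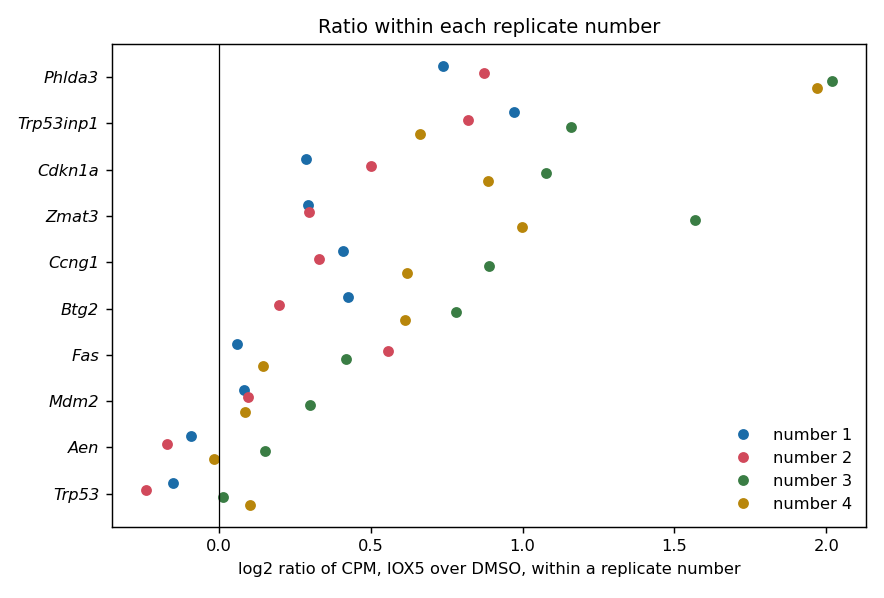
Log2 ratio of CPM, IOX5 over DMSO, within each sample number (x axis) for the 10 genes (y axis); each color is a number. Points for *Phlda3* run from 0.74 to 2.02 and those for *Zmat3* from 0.29 to 1.57, with number 3 the farthest to the right in both; those of *Trp53* and *Aen* lie on both sides of 0.

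Per kilobase of annotated exon, the mean level with DMSO was 89.6 CPM for *Ccng1*, 44.9 for *Cdkn1a*, 39.2 for *Trp53*, 22.7 for *Mdm2* and 12.4 for *Aen*. Next came *Phlda3* (5.73), *Trp53inp1* (5.42), *Btg2* (4.47), *Fas* (3.48) and *Zmat3* (1.99 CPM per kilobase). The ranges of *Cdkn1a* and *Trp53* overlapped, and from *Phlda3* down each gene overlapped the next, so their order is not set apart from the spread. In the IOX5 samples *Ccng1* reached 130.5 and *Cdkn1a* 71.7 CPM per kilobase, while *Trp53* stood at 37.4.

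Patterns over the 8 samples were compared by the root mean square difference of centered log2 CPM, over 8924 genes with a mean of at least 10 CPM. For *Cdkn1a* the 3 nearest genes were *Srxn1* (0.11), which encodes the antioxidant enzyme sulfiredoxin, and the members *Ccng1* (0.11) and *Btg2* (0.15). *Srxn1* stood at 48.2, 49.9, 40.8 and 43.4 CPM with DMSO and at 62.8, 79.8, 74.7 and 72.9 CPM with IOX5. *Srxn1* was called higher in both fits (log2 fold change 0.67, adjusted p = 0.0209 without and 0.000224 with the block, edgeR), and its groups did not overlap. Like *Cdkn1a*, it was highest in sample 2 of both groups and lowest in DMSO sample 3. For *Trp53* the nearest were *Polr3c* (0.03), *Rpusd4* (0.03) and *Rpl7l1* (0.03), and for *Mdm2* they were *Sergef* (0.05), *Ipo13* (0.06) and *Mlf2* (0.06). None of these 6 genes was called in either fit. The 8 samples share library and treatment effects, and the likeness is a description.

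Beyond the 10 genes, 55 other p53 targets were listed by role, of which 50 were tested. Their log2 fold changes were above 0 for 38 genes and below 0 for 12, with a median of 0.21. Without the block, 3 were called higher and 0 lower by edgeR, beside 0.774% and 1.25% of all genes. At an unadjusted p under 0.05, 18 were higher and 2 lower, beside 8.98% and 11.2% of all genes. DESeq2 called 5 higher and 1 lower, beside 3.94% and 4.85% of all genes. The fit with the block called 17 of the 50 higher and 4 lower, beside 11.2% and 9.43% of all genes, so that the lower count lay near the share of all genes. Counts by role follow, and the same shares of all genes stand beside them.

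Of 14 arrest and repair targets, 2 rose without the block. *Psrc1*, a regulator of the mitotic spindle, rose from 16.5 ± 0.667 to 37.1 ± 10.3 CPM (SD, n = 4 each; log2 fold change 1.17, SE 0.18, adjusted p = 0.0254 by edgeR). *Xpc*, which detects DNA damage in nucleotide excision repair, rose from 57.6 ± 6.06 to 80.9 ± 5.73 CPM (SD, n = 4 each; 0.49, SE 0.09, adjusted p = 0.0380 by edgeR). Neither gene's groups overlapped. With the block, 5 of the 14 were higher and 1 was lower. The higher genes included *Sfn*, which encodes 14-3-3 sigma (0.43, adjusted p = 0.181 without and 0.0134 with the block, edgeR). The lower gene was *Gadd45a*, a growth arrest and DNA repair gene (-0.39, adjusted p = 0.204 without and 0.0282 with the block, edgeR). It shares 337 exonic bases with a gene on the opposite strand that had 152 reads against 2905.

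Of 14 apoptosis targets, 0 were called without the block in either direction by edgeR, with 4 higher and 1 lower at an unadjusted p under 0.05, and DESeq2 called 1 higher and 1 lower. With the block, 5 were higher and 1 lower. *Bax*, which permeabilizes mitochondria, stood at 89.8 ± 10.7 and 123.8 ± 16.6 CPM (SD, n = 4 each; adjusted p = 0.0745 without and 0.00230 with the block, edgeR). *Pmaip1*, which encodes the pro-apoptotic protein NOXA, went the other way, at 186.7 ± 13.03 CPM with DMSO and 148.0 ± 14.4 CPM with IOX5 (SD, n = 4 each). Its groups did not overlap (adjusted p = 0.0724 without and 0.00225 with the block, edgeR). *Eda2r*, a receptor of the tumor necrosis factor family, was low in level at 0.734 and 2.43 CPM, from as few as 6 reads in a library (log2 1.72, adjusted p = 0.128 without and 0.00215 with the block, edgeR). *Casp1*, an inflammatory caspase, had a log2 fold change of 0.27 (adjusted p = 0.280 without and 0.0322 with the block, edgeR).

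Of 7 genes that feed back on p53, 0 were called without the block by edgeR, with 1 higher and 0 lower at an unadjusted p under 0.05, and DESeq2 called 0. *Rps27l*, a ribosomal protein gene whose product binds MDM2, was the 1 gene called with the block (0.23, adjusted p = 0.213 without and 0.0413 with it, edgeR). The last group of 20 targets, of metabolism, redox and other roles, had 15 genes tested, of which 1 was called higher without the block. This was *Abhd4*, a lipase gene, which rose from 47.9 ± 4.74 to 69.5 ± 8.21 CPM (SD, n = 4 each; 0.54, SE 0.10, adjusted p = 0.0413 by edgeR). With the block, 6 were higher and 2 lower. *Ninj1*, which mediates rupture of the plasma membrane, had a log2 fold change of 0.51 (adjusted p = 0.203 without and 0.000315 with the block, edgeR). *Gdf15*, a secreted factor of the TGF-β family, rose with the block from 0.805 to 2.69 CPM, with as few as 4 reads in a library (adjusted p = 0.0909 without and 0.000858 with it, edgeR). *Tap1*, a peptide transporter of antigen presentation, had 0.33 (adjusted p = 0.105 without and 0.00685 with the block, edgeR). It shares 212 exonic bases with a gene on the opposite strand that had 3249 reads against 6493.

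**Figure D4:**
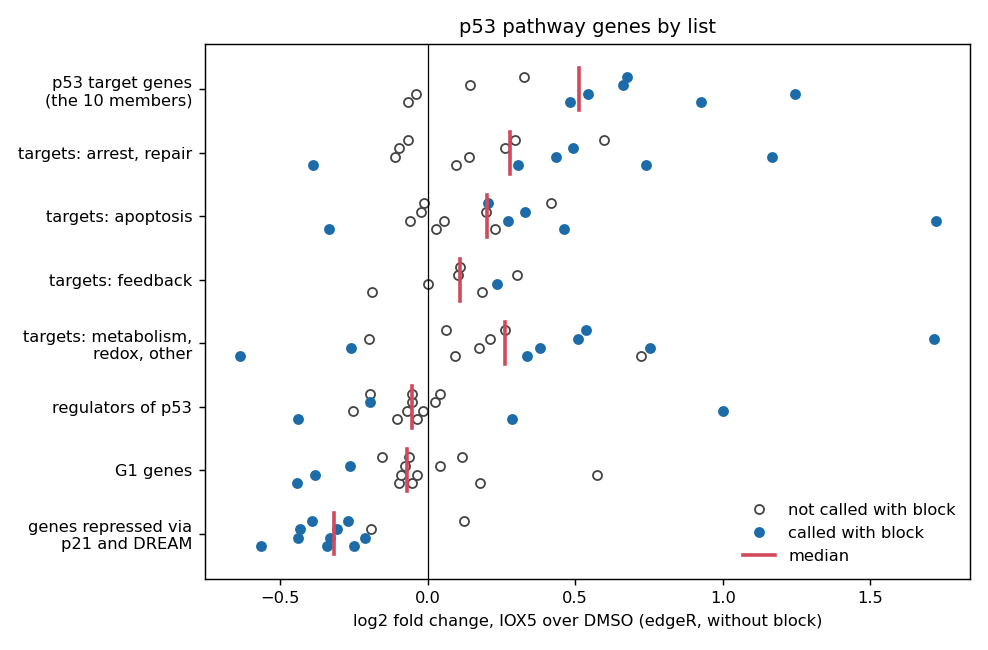
Log2 fold change without the block (x axis) of each gene tested, by list (y axis). Filled points were called with the replicate block and red lines are medians; the median is 0.51 for the 10 genes and -0.32 for the cell cycle genes repressed through p21.

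Of 14 regulators of p53 that are not counted as its targets, 0 were called without the block by edgeR. At an unadjusted p under 0.05, 2 were higher and 2 lower, beside 8.98% and 11.2% of all genes. DESeq2 called 1 higher and 2 lower, beside 3.94% and 4.85% of all genes. With the block, 2 were higher and 2 lower, beside 11.2% and 9.43% of all genes, so that both counts lay near the share of all genes. The median log2 fold change was -0.05. *Cdkn2a*, which encodes INK4A and the MDM2 antagonist ARF from shared exons, stood at 8.05, 3.11, 4.96 and 5.48 CPM with DMSO and at 13.3, 8.61, 11.9 and 9.54 CPM with IOX5. The groups did not overlap, and reads per gene cannot tell INK4A from ARF. Its log2 fold change was 1.002 (SE 0.28, adjusted p = 0.0928 without and 0.000576 with the block, edgeR). *Crebbp*, an acetyltransferase that acts on p53, was lower with the block (53.3 against 39.2 CPM; adjusted p = 0.0517 without and 0.00292 with it, edgeR). *Usp7*, which removes ubiquitin from MDM2 and p53, was also lower with the block (366.2 against 319.6 CPM; adjusted p = 0.113 without and 0.0491 with it, edgeR). *Chek2*, a kinase of the DNA damage response, was higher with the block (0.29; adjusted p = 0.207 without and 0.0331 with it, edgeR).

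Downstream of p21, 12 cell cycle genes that p53 is known to repress through p21 and the DREAM complex stood at a median of -0.32 on the log2 scale. Of these, 11 were below 0 and lower within all 4 numbers, 2 were called lower without the block and 10 with it. Of all genes tested, 19.8% were lower within all 4 numbers, 1.25% were called lower without the block and 9.43% with it. *Cdc20*, an activator of the anaphase-promoting complex, fell from 137.9 ± 4.85 to 102.2 ± 10.8 CPM (SD, n = 4 each; log2 fold change -0.43, adjusted p = 0.0389 by edgeR). The other gene called without the block was the mitotic kinase *Plk1* (-0.57, adjusted p = 0.0163 by edgeR). The mitotic cyclin *Ccnb1* stood at 182.7 and 134.6 CPM (adjusted p = 0.0560 without and 0.000650 with the block, edgeR). *Ccna2*, a cyclin of S phase and mitosis, stood at 278.0 and 211.7 CPM (adjusted p = 0.0597 without and 0.00200 with the block, edgeR). *Ccna2* shares 510 exonic bases with a gene on the opposite strand that had 7827 reads against 24684. *Cdc20* shares 53 exonic bases with a gene on the opposite strand that had 14278 reads against 12116. Over the whole list, the groups did not overlap for 6 of the 12 genes, all lower with IOX5, beside 8.3% of all genes in that direction. The 4 genes named here, which were picked by their adjusted p, are among those 6. No gene of this list was called higher in either fit, and 0 were higher at an unadjusted p under 0.05 by edgeR or called higher by DESeq2. Other controls than p53 act on these cell cycle genes too.

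For the 14 partners of p21 and G1 genes the median was -0.07 (log2). Without the block 0 were called by edgeR, with 0 higher and 4 lower at an unadjusted p under 0.05 (8.98% and 11.2% of all genes). DESeq2 called 0 higher and 1 lower (3.94% and 4.85% of all genes). With the block 3 were lower and 0 higher, beside 9.43% and 11.2% of all genes. These were the E cyclins *Ccne1* (-0.44, adjusted p = 0.196 without and 0.00825 with the block, edgeR) and *Ccne2* (-0.26, 0.0816 and 0.0246) and the CDK4/6 inhibitor *Cdkn2d* (-0.38, 0.217 and 0.00225). Without DMSO sample 2, which stood at 70.8 CPM against 41.9 to 48.4 CPM in the other DMSO samples, the unblocked value of *Ccne1* was -0.25. *Ccne2* shares 609 exonic bases with a gene on the opposite strand of similar read number.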

How the data were processed

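RNA-seq counts of 4 DMSO and 4 IOX5 samples were used, with groups and sample numbers from the labels. Per the labels and the paper's methods, the authors made strand-specific libraries from poly(A) RNA, trimmed reads with cutadapt 1.18, mapped them to GRCm38 with HISAT2 2.2.1 and deposited raw read counts per gene from HTSeq 2.0.1. The gene annotation release used for counting is not given in the sources used here. Of 54838 genes, 54723 were matched to GENCODE M21. Summary lines for unassigned reads (20.6% to 22.6% of each file) were left out. *Xist* had 105071 reads and its antisense partner *Tsix* 21, so reads were not counted on the wrong strand. These counts cannot tell counting by strand from counting without it, since reads on exons of both genes may be set aside as ambiguous.

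Genes were filtered with filterByExpr (12405 retained), scaled with TMM (factors 0.988 to 1.03) and tested in R 4.3.3 with the quasi-likelihood test of edgeR 4.0.16, without a block. The common biological coefficient of variation was 0.202. Standard errors were derived from the quasi-likelihood F. Single genes were also compared by exact two-sided permutation over the 70 assignments of 8 samples. Same-number samples correlated in their deviations from the group means (r = 0.758, 0.744, 0.732 and 0.636 for numbers 1 to 4). For number 4 the deviations of the DMSO sample correlated more with those of another IOX5 number (0.685), and for number 3 nearly as much (0.617). Every same-number correlation was over 0.1, so a fit with the number as a block was given too. No 2 samples of a group agreed within sampling noise, but samples 3 and 4 were the closest pair in each group. The chi-square per degree of freedom between their counts was 2.17 with DMSO, against 13.98 to 22.65 for the other DMSO pairs. With IOX5 it was 9.21, against 18.22 to 40.9 for the other IOX5 pairs. Whether numbers 3 and 4 are independent of each other is not known. Nothing says that samples came from separate cultures or animals, so p-values measure the spread between these samples, which may be technical.

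Alternatives were DESeq2 1.42.0, voom with sample weights (limma 3.58.1), RLE and upper-quartile factors, other filters on counts, thinning, an adjusted p under 0.1, leaving out each sample, and the blocked fit without each number. The members and lists were chosen with earlier results of these data known. Besides the 10 genes, the named genes are those called in each pathway list, up to the 4 with the smallest adjusted p per list and fit, with *Trp63*, *Trp73* and the 3 genes nearest in pattern to *Trp53*, *Cdkn1a* and *Mdm2*. Promoter windows were from RefSeq (GRCm38.p6). The steps were tested on simulated data. For the fits without the block, the simulated samples varied less than these samples and held no differences between numbers. The lymphoid marker list is not reported here.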

Additional observations from a re-analysis of the deposited data

Results flagged for a closer look

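Of 68 groups of 4 values examined, 3 held a sample far from the other 3. The gap to the nearest sample was past the 95% limit of Dixon's ratio for 4 samples, and chance gives about 1 in 20. *Mdm2* in DMSO sample 2 was at 129.1 CPM, against 109.3 to 112.1 CPM in the other DMSO samples. *Phlda3* in IOX5 sample 2 was at 30.6 CPM, against 16.6 to 18.9 CPM in the other IOX5 samples. *Casp1* in DMSO sample 2 was at 40.6 CPM, against 30.7 to 32.0 CPM in the other DMSO samples. All 3 values belong to sample number 2.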

How the results depend on the processing

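The median log2 fold change of the 10 genes moved by less than the spread between replicates under every alternative run. The replicate block changed the counts of calls the most, to 2564 of all genes, 6 of the 10 genes and 21 of the other p53 targets. DESeq2 called 1091, 4 and 6, and voom 1036, 6 and 11. Without a filter on low counts, 152 of all genes and 2 of the 10 genes were called, *Cdkn1a* and *Trp53inp1*. At an adjusted p under 0.1, 3 of the 10 genes were called. Leaving out 1 sample at a time gave 0 to 463 calls over all genes, 0 to 1 among the 10 genes and 0 to 4 among the other targets. No gene at all was called by edgeR when DMSO sample 3, DMSO sample 4 or IOX5 sample 3 was left out (1969, 1846 and 2111 genes at an unadjusted p under 0.05). *Aen* turned sign without DMSO replicate 2 (0.0261), and its log2 fold change ran from -0.10 to 0.03 over the samples left out. With the block, leaving out 1 number gave 5 or 6 of the 10 genes. The cause of these changes was not tested. The lowest depth behind a value of the 10 genes was 55 reads, for *Phlda3*.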
